A study of Mus musculus with 16 samples.

Results

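MiR-103 and miR-107 are a pair of near-identical microRNAs (miRNAs, short RNAs that guide repression of target mRNAs) whose steadiness makes miR-103 a usual reference for normalising qPCR. Both were found by name (mmu-miR-103 and mmu-miR-107) on the mouse miRNA array, and they are 2 of its 577 miRNAs. Dorsal skin was taken from adult female hairless-derived mice of the mixed background SKH1-C57/Bl6-SV129, WT (Ppard+/+) or KO (Ppard-/-), littermates on that background, the KO lacking the nuclear receptor PPARβ/δ in every cell of the body. UV groups had received UVB at 70 mJ/cm2 per exposure, repeatedly over 12 weeks, and the no UV groups were age-matched and not irradiated. Each of the 4 groups (unirradiated WT, unirradiated KO, irradiated WT and irradiated KO; no UV and UV in the plots) held 4 arrays, 1 per labelled sample. The labels do not name animals, so p-values measure the spread between these samples.

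The genes of this pair lie within pantothenate kinase genes: in the RefSeq mouse annotation (GRCm38.p6) Mir103-1 lies within Pank3, Mir103-2 within Pank2 and Mir107 within Pank1. These kinases start the synthesis of coenzyme A, and miR-103 and miR-107 are known as regulators of lipid and insulin metabolism and of Dicer, the enzyme that cuts miRNA precursors. A miRNA finds its targets mainly through its seed, bases 2 to 8 counted from the 5′ end. The mature sequences, from RefSeq, are shown to make clear how little separates the 2 miRNAs and where they meet the miR-15/16 group; the seed is in capitals.
miR-103-3p: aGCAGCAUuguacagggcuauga
miR-107-3p: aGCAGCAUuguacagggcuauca
miR-16-5p: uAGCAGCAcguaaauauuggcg
miR-15a-5p: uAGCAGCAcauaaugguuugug
miR-103-3p and miR-107-3p were identical at 22 of 23 positions. The 1 difference was G22C (miR-103 base, position from the 5′ end, miR-107 base), near the 3′ end and outside the seed. No other mature miRNA in the RefSeq table shared their seed, among 1679 names. The 6-base run that opens both, positions 1 to 6, also stood in miR-15a, miR-15b, miR-16, miR-195a, miR-322 and miR-497a, shifted by 1 base to positions 2 to 7. Mir103-1 and Mir103-2 give the same mature sequence, so their products could not be told apart.

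The array measured each miRNA with 2 probes, each printed as 10 spots. The files place the probes for miR-103 at chr11:35595954-35595971 and chr11:35595955-35595971, and those for miR-107 at chr19:34895190-34895209 and chr19:34895190-34895208 (mm9). They are 18 and 17 bases long for miR-103 and 20 and 19 for miR-107, and the probes of a pair share 1 end. How much of each miRNA's signal comes from binding of the other miRNA was not tested, and the 2 levels are uncertain to that extent. No spot of either miRNA was saturated on any array, and both miRNAs were detected on all 16 arrays.

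The summed signal of the arrays ran from 170979 to 395200 intensity units. All 8 irradiated arrays lay on 1 slide and all 8 unirradiated arrays on the other, so slide and irradiation cannot be told apart. The irradiated slide had a local background of 119 to 130 units against 63.3 to 65.8, a negative-control SD of 9.10 to 10.3 against 3.66 to 4.25, and 184 to 206 detected miRNAs against 216 to 266. Genotype also went with the slide row there, WT in 1 row and KO in the other. The skin markers miR-203 and miR-205 were detected on all 16 arrays, and miR-124 (neuron) and miR-122 (liver) on 0.

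Before normalisation the total signal of miR-103 was 888, 977, 694 and 786 units in unirradiated WT and 931, 1507, 1265 and 1193 in unirradiated KO. It was 927, 942, 762 and 1127 in irradiated WT and 873, 852, 814 and 838 in irradiated KO, each in replicate order 1 to 4. Unirradiated KO was the bright group, with 3 of its 4 arrays above every other array. MiR-107 was high and low on largely the same arrays, with 993, 1268, 826 and 883 units in unirradiated WT, 1198, 1809, 1615 and 1535 in unirradiated KO, 1258, 1271, 1053 and 1539 in irradiated WT, and 1166, 1203, 1075 and 1138 in irradiated KO. Here unirradiated KO overlapped irradiated WT, whose replicate 4 reached the level of unirradiated KO replicate 4. The software's own error estimate was 7.36% to 8.02% of the miRNA's signal across the 2 miRNAs and 16 arrays. Between the spots of a probe the SD was 3.88% to 8.03% of the mean, as medians by probe. On irradiated KO replicate 4 it was 34.4% and 15.3% for the longer and the shorter miR-107 probe. On irradiated KO replicate 1 it was 15.6% for the shorter miR-103 probe.

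These unnormalised levels tracked the brightness of the array. Over the 16 arrays the log2 signal of miR-103 correlated with the log2 summed signal of all other miRNAs at Pearson's r = 0.96 and Spearman's rho = 0.89, with permutation p = 1e-05, the smallest that 100000 resamples can give, and p = 3e-05 (6e-05 and 9e-05 after Benjamini-Hochberg adjustment over 12 correlation tests). For miR-107 r was 0.93 and rho 0.91 (permutation p = 1e-05 and 2e-05; adjusted 6e-05 and 8e-05). Within the irradiated slide r was 0.89 for miR-103 and 0.92 for miR-107 (n = 8; adjusted exact permutation p = 0.00512 and 0.00241), with rho of 0.76 and 0.83 (adjusted exact p = 0.0368 and 0.0168). Within the unirradiated slide r was 0.98 for both (n = 8; adjusted exact permutation p = 0.000238 and 0.000298), with rho of 0.98 for both (adjusted exact p = 0.000595 for each). Without the 2 arrays farthest from the median brightness, unirradiated KO replicates 2 and 3, r was 0.93 for miR-103 and 0.89 for miR-107 (n = 14). As a description, the r of miR-103 ranked 1 and that of miR-107 ranked 13 among the 167 miRNAs detected on all arrays, whose median was 0.80. The summed signal leaves out the miRNA it is compared with, but all miRNAs of an array share its RNA input, labelling and scan.

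**Figure D1:**
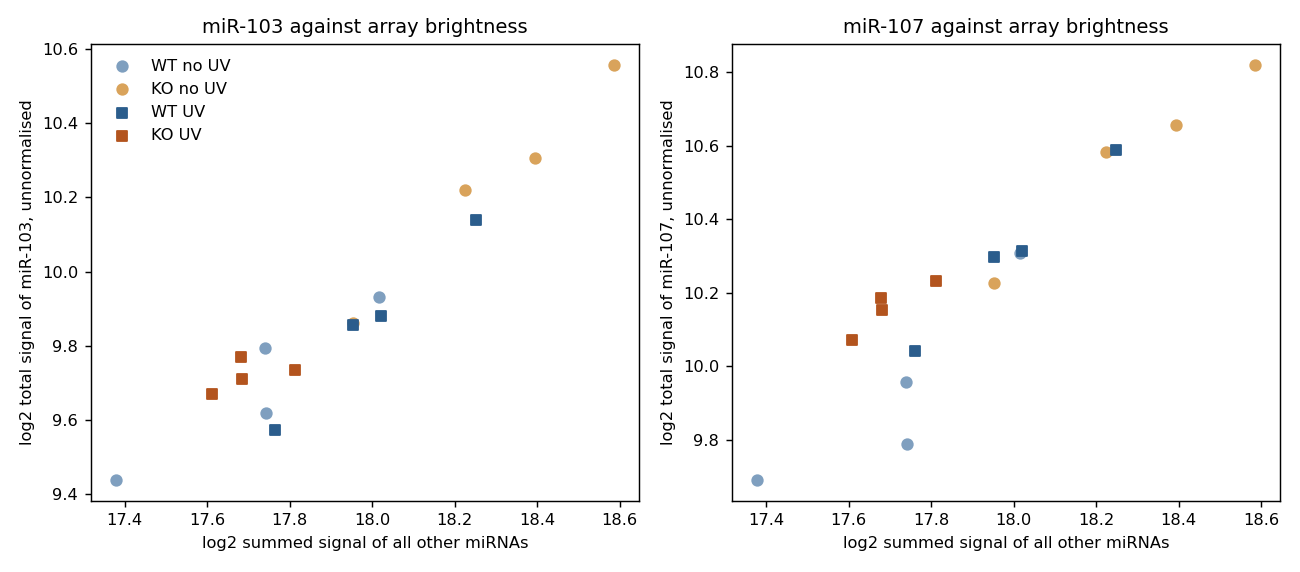
The log2 total signal of miR-103 (left) and miR-107 (right), unnormalised, against the log2 summed signal of all other miRNAs on the same array, 1 point per array; circles are unirradiated and squares irradiated arrays. Both signals rise with array brightness (r = 0.96 and 0.93 over 16 arrays), and the irradiated KO squares of miR-107 sit above the trend of the other arrays of similar brightness.

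The groups differed in brightness and in the unnormalised signals in the same direction. Unirradiated KO exceeded unirradiated WT by 0.54 log2 units in miR-103, by 0.64 in miR-107 and by 0.57 in the summed signal itself (exact permutation p = 0.0571 for each, n = 4 against 4, adjusted 0.0857 over 15 tests). Limma on the unnormalised signals of all tested miRNAs called both members (adjusted p = 0.0126 and 0.00762). The share of all tested miRNAs called on that scale was not counted, so these calls are not read as particular to the pair. After UV KO minus WT was −0.14, −0.15 and −0.30 log2 units in the same order (exact p = 0.314, 0.286 and 0.0571). Both scalings narrowed the spread. The SD over 16 arrays fell from 0.29 log2 units to 0.11 for miR-103 and from 0.31 to 0.11 for miR-107 on quantile normalisation, and to 0.08 and 0.11 on division by the summed signal.

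As a reference is judged by its spread, the 2 miRNAs were placed among the 167 detected on all arrays, as a description with no test. After quantile normalisation miR-107 had the 5th and miR-103 the 6th smallest SD over the 16 arrays, against a median SD of 0.27; the SD was smallest for let-7a, at 0.09. Within groups miR-103 ranked 1 of 167, with a pooled SD of 0.07, and miR-107 ranked 11, with 0.11. When each array was divided by its summed signal, miR-103 ranked 1 both over all arrays (SD 0.08) and within groups (0.07), and miR-107 ranked 9 and 2. Without any normalisation they ranked 20 and 31 over all arrays. Quantile normalisation assigns values by rank, and 3 of the 4 unirradiated KO arrays took the same value for miR-103, which narrows its spread there.

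The other miRNAs in common use as references ranked over a wider range. Of 9 listed, 8 were detected on all arrays, and miR-191 was detected on 0. After quantile normalisation let-7a, miR-24, miR-26a and miR-16 ranked 1, 7, 8 and 9 by SD over 16 arrays, close to the pair, while miR-93 ranked 38, miR-25 ranked 61, miR-423-5p ranked 66 and miR-17 ranked 69. MiR-17 and miR-423-5p were also dim, at means of 5.72 and 5.88 log2 units against 9.89 for miR-103 and 10.27 for miR-107. Divided by the summed signal, miR-16 and let-7a ranked 10 and 13, while miR-26a and miR-24 ranked 40 and 46. Both of these settings placed miR-103 and miR-107 among the 9 least variable. Scaled to the 75th percentile, over miRNAs detected throughout, miR-103 ranked 9 and miR-107 ranked 12, beside miR-25 at 13 and miR-16 at 15. With no normalisation miR-25 and miR-16 varied less than the pair, ranking 12 and 13 against 20 for miR-103 and 31 for miR-107. The remaining references ranked from 21 to 92 and from 41 to 97 on these scales, in that order. Small nucleolar RNA sno234, another qPCR reference of the study, had no feature on the array by that name.

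**Figure D2:**
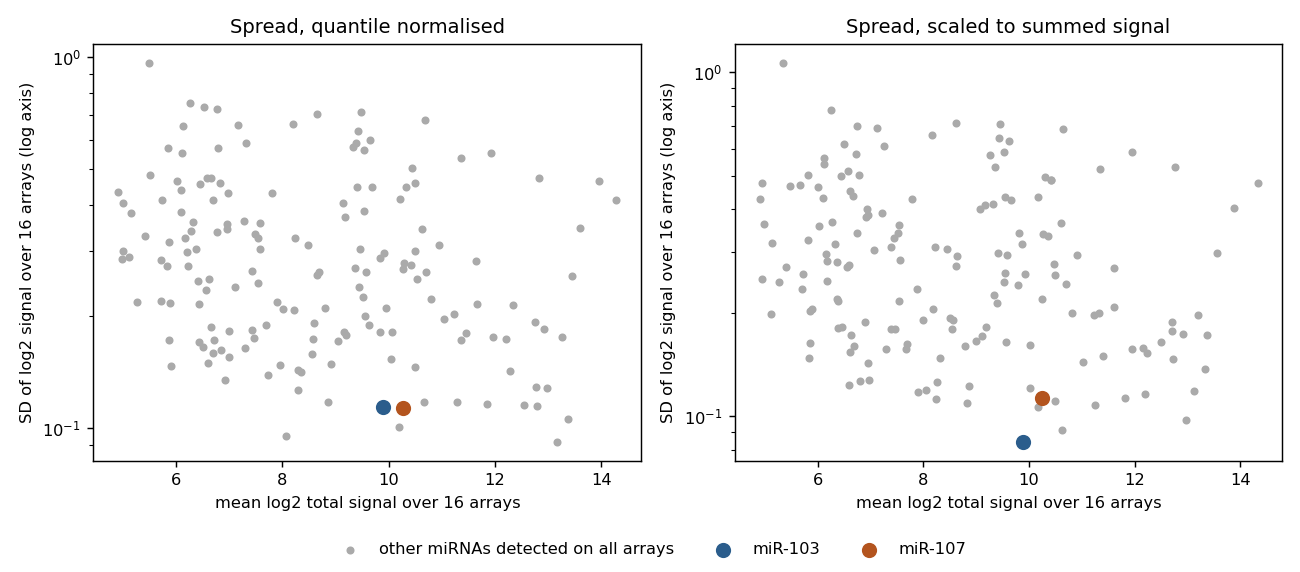
The SD of log2 signal over the 16 arrays (vertical log axis) against the mean log2 signal, for 167 miRNAs detected on all arrays, after quantile normalisation (left) and after division by the summed signal of the array (right). MiR-103 (blue) and miR-107 (orange) lie at the lower edge, with SDs of 0.11 and 0.11 on the left and 0.08 and 0.11 on the right.

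On the quantile normalised scale miR-103 was at 10.04, 9.98, 9.98 and 9.85 log2 units in unirradiated WT and at 9.88, 9.98, 9.98 and 9.98 in unirradiated KO. It was at 9.72, 9.80, 9.69 and 9.72 in irradiated WT and at 9.98, 9.77, 9.91 and 9.91 in irradiated KO. Irradiated WT was thus the low group: all 4 of its arrays lay under every unirradiated WT and every unirradiated KO array, and they overlapped only irradiated KO. In order, the group means were 9.97 ± 0.08 in unirradiated WT, 9.96 ± 0.05 in unirradiated KO, 9.89 ± 0.09 in irradiated KO and 9.74 ± 0.05 in irradiated WT (SD, n = 4 each). The first 3 of these overlapped each other.

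MiR-103 was lower by 0.23 log2 units after UV in WT skin, that is −0.23 ± 0.05 (SE), with a 95% interval of −0.34 to −0.12 and an adjusted p of 0.00683 (limma, Benjamini-Hochberg over 228 tested miRNAs). In that comparison 16.2% of the tested miRNAs passed the threshold and 7.02% passed it as lower, so 1 of the 2 members was called. The call depended on the scaling. With each array divided by its summed signal the difference was −0.11 (limma adjusted p = 0.103), and with an invariant set of 82 miRNAs it was −0.11 (limma adjusted p = 0.0905); with no normalisation it turned to 0.17 (limma adjusted p = 0.474). With the replicate number as a block it was −0.23 with an adjusted p of 0.0206 over all 16 arrays and of 0.0906 over the WT arrays alone (limma). UV and slide cannot be told apart for any of these values, nor can fewer cells that hold the miRNA and less of it per cell in whole skin. Beside this call, 1 of the 4 leukocyte miRNAs on the list was called lower in the same comparison, miR-150 at −1.05 (limma adjusted p = 0.000329), with a list median of −0.38 and a summed signal of 3095 to 4453 units in unirradiated WT and 2895 to 3516 in irradiated WT. Of the fibroblast and vessel list miR-126-3p was called higher, at 0.46, and miR-145 lower, at −0.93 (limma adjusted p = 0.000599 and 0.00963), and the keratinocyte, muscle and erythrocyte lists held 0 calls by limma. All 14 of the tested keratinocyte, muscle, leukocyte and fibroblast and vessel miRNAs were detected on all 16 arrays, and the part of these lists in the level of miR-103 was not tested.

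In KO skin the difference of miR-103 after UV was −0.06 (95% interval −0.17 to 0.04; limma adjusted p = 0.363), and the comparison of the 2 UV effects, WT minus KO, was −0.17 (95% interval −0.32 to −0.01; limma adjusted p = 0.319).

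Between genotypes miR-103 differed by −0.01 without UV (95% interval −0.11 to 0.10; limma adjusted p = 1) and by 0.16 with UV (95% interval 0.05 to 0.27; limma adjusted p = 0.223, unadjusted p = 0.00685 by limma). The background shares were 0% of tested miRNAs without UV, with 36 at an unadjusted limma p under 0.05, and 2.19% with UV. Leaving out irradiated KO replicate 2, the KO array nearest to irradiated WT, brought the genotype difference after UV to 0.20 (limma adjusted p = 0.029), past the threshold.

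MiR-107 had no called difference on the same scale. It was at 10.18, 10.41, 10.29 and 10.04 log2 units in unirradiated WT, at 10.14, 10.41, 10.29 and 10.41 in unirradiated KO, at 10.25, 10.14, 10.14 and 10.29 in irradiated WT and at 10.36, 10.33, 10.29 and 10.36 in irradiated KO. The groups overlapped or met throughout, with irradiated KO the narrowest. Group means were 10.34 ± 0.03 in irradiated KO, 10.31 ± 0.13 in unirradiated KO, 10.23 ± 0.16 in unirradiated WT and 10.20 ± 0.08 in irradiated WT (SD, n = 4 each).
KO minus WT was 0.08 without UV (95% interval −0.08 to 0.25; limma adjusted p = 0.676) and 0.13 with UV (−0.03 to 0.30; adjusted p = 0.653). The UV difference was −0.03 in WT skin (−0.19 to 0.14; limma adjusted p = 0.859) and 0.03 in KO (−0.14 to 0.19; adjusted p = 0.87), where 29.8% of tested miRNAs were called. The UV effects differed by −0.05 (−0.28 to 0.18; limma adjusted p = 0.916), in a comparison with 2.19% called.

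**Figure D3:**
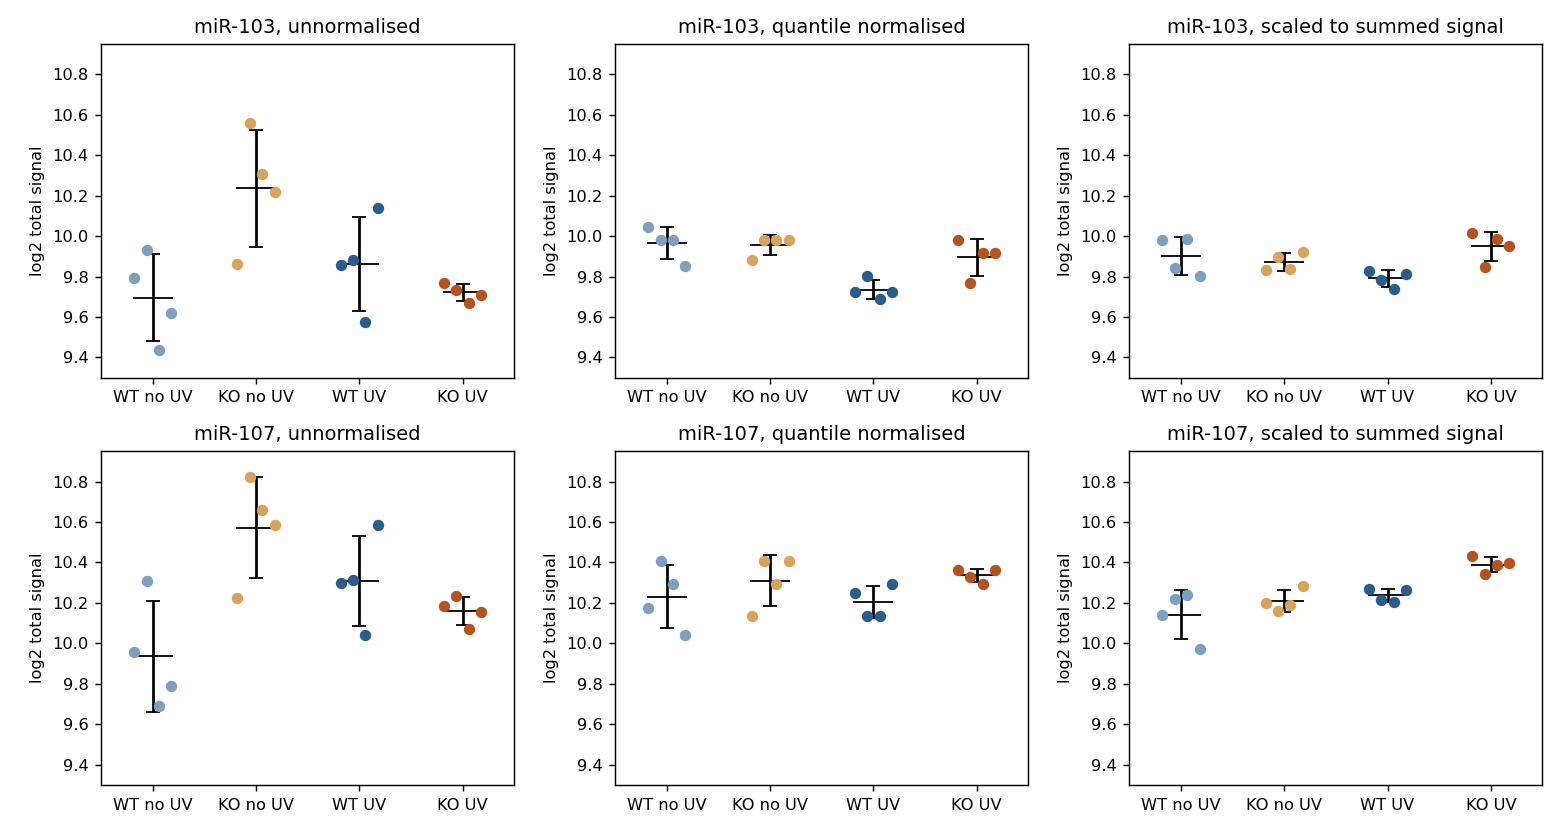
The log2 total signal of miR-103 (top) and miR-107 (bottom) on each array, unnormalised, quantile normalised and scaled to the summed signal of the array; points are arrays, bars the mean ± SD of 4 arrays. The wide spread on the left narrows in both scaled panels, where miR-103 is lowest in irradiated WT and miR-107 scaled to summed signal is highest in irradiated KO.

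Relative to array brightness the pair gave a second picture, in which irradiated KO was the high group. MiR-103 made up 0.404%, 0.367%, 0.406% and 0.357% of the summed signal in unirradiated WT, 0.365%, 0.381%, 0.366% and 0.388% in unirradiated KO, 0.364%, 0.353%, 0.341% and 0.36% in irradiated WT, and 0.414%, 0.369%, 0.405% and 0.397% in irradiated KO. Irradiated KO lay above irradiated WT on every array, though its lowest value and the highest of irradiated WT were close. MiR-107 made up 0.452%, 0.477%, 0.483% and 0.402% in unirradiated WT, 0.47%, 0.458%, 0.467% and 0.499% in unirradiated KO, 0.494%, 0.476%, 0.472% and 0.491% in irradiated WT, and 0.552%, 0.52%, 0.535% and 0.539% in irradiated KO. All 4 irradiated KO arrays exceeded all 12 other arrays.

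The differences on this scale were tested by exact two-sided permutation of 4 against 4 arrays, whose smallest p is 0.0286, with adjustment over 10 tests. After UV, KO exceeded WT by 0.16 log2 units in miR-103 and by 0.15 in miR-107 (exact p = 0.0286 each, adjusted 0.0714, higher in 4 of 4 KO arrays than in any WT array). This separation depended on the measure of brightness. Against the median signal of the other miRNAs the arrays overlapped for both (exact p = 0.114 for miR-103 and 0.0571 for miR-107). For miR-103 they also overlapped against the sum without the 10 brightest miRNAs and with processed spot signals (exact p = 0.0571 each). Against the 75th percentile both stayed apart. In KO skin UV minus none was 0.18 for miR-107 (exact p = 0.0286, adjusted 0.0714) and 0.08 for miR-103 (exact p = 0.114, adjusted 0.19). In WT skin it was −0.11 for miR-103 (exact p = 0.0857, adjusted 0.171) and 0.10 for miR-107 (exact p = 0.171, adjusted 0.245). Without UV the genotypes differed by −0.03 and 0.07 (exact p = 0.543 and 0.457; adjusted 0.543 and 0.508). The difference of the UV effects (WT minus KO) was −0.19 for miR-103 (p = 0.0265 over 4900 exact permutations, adjusted 0.0714) and −0.09 for miR-107 (exact p = 0.365, adjusted 0.456). None of the 10 fell under 0.05 after adjustment, a level that the exact tests of 4 against 4 arrays could hardly reach. The differences of UV effects, tested over 4900 permutations, could reach it and did not.

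Limma on the signals divided by the summed signal called 1 of the 10 differences, with adjustment over the 228 miRNAs, the rise of miR-107 after UV in KO skin, by 0.18 (95% interval 0.07 to 0.29; adjusted p = 0.0149), where 27.9% of the other tested miRNAs were called on that scale. With the invariant set it was 0.15 (limma adjusted p = 0.0402). On the quantile scale the same difference was 0.03 and not called, and with scaling to the 75th percentile (over the miRNAs detected throughout) it was 0.06 (limma adjusted p = 0.721). With no normalisation it was −0.41 and called as lower (limma adjusted p = 0.0334), on a scale where the share of all tested miRNAs called was not counted. The cell type lists were taken on the quantile scale, where miR-107 was not called. In KO skin after UV 29.8% of tested miRNAs were called there by limma, and 18.4% were called higher. Both keratinocyte miRNAs on the list (miR-203 and miR-205) were called higher on that scale. All 4 skeletal muscle miRNAs (miR-1, miR-133a, miR-133b and miR-206) were called lower. Of the fibroblast and vessel list miR-143 and miR-145 were called lower and miR-214 higher (list median −0.39), and of the leukocyte list miR-150 was called lower (list median −0.33). The summed quantile normalised signal of the muscle list was 40655 to 50330 units in unirradiated KO and 19464 to 24489 in irradiated KO, against 20453 to 41168 in unirradiated WT and 21899 to 25985 in irradiated WT. That of the keratinocyte list was 17460 to 22714 in unirradiated KO and 22714 to 36820 in irradiated KO, against 17773 to 20852 in unirradiated WT and 20466 to 24801 in irradiated WT. The fibroblast and vessel list summed to 3168 to 3667 units in unirradiated KO and 2912 to 3204 in irradiated KO, and the leukocyte list to 2285 to 3547 and 2324 to 3047. The part of these lists in the levels of miR-103 and miR-107 was not tested.

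**Figure D4:**
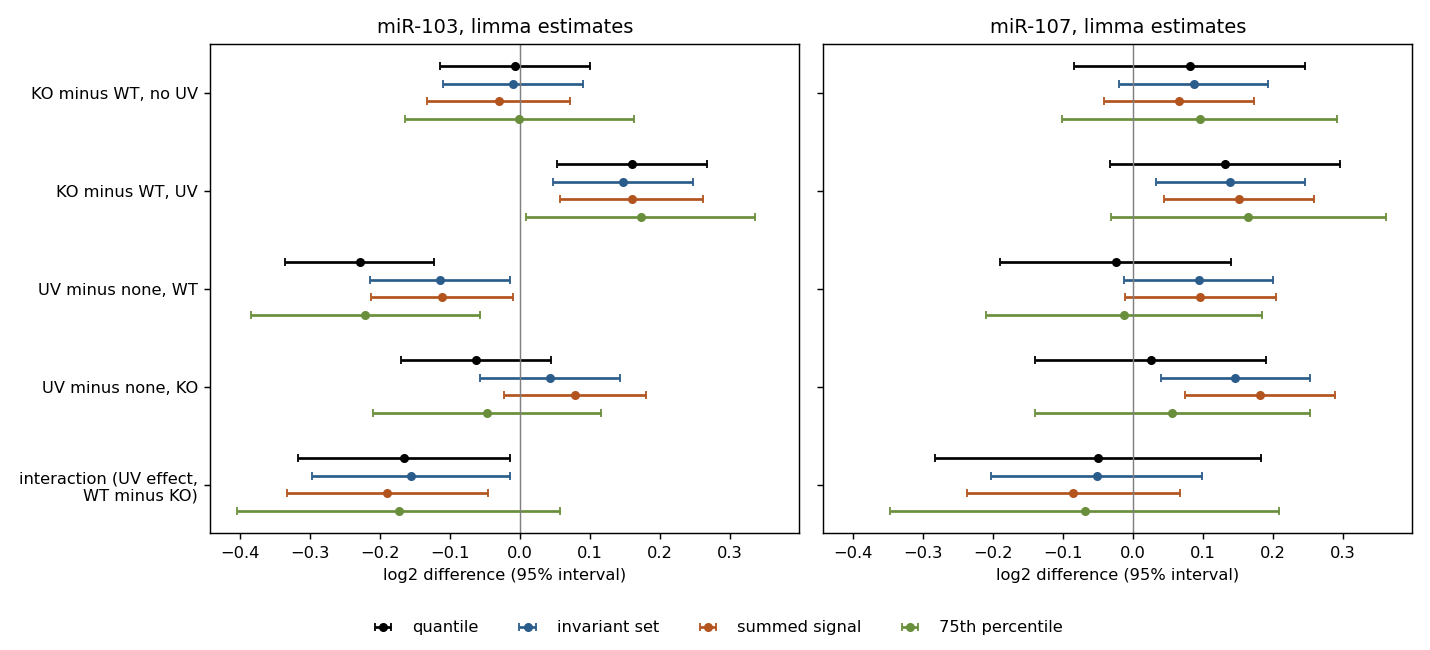
Limma estimates of the 5 comparisons for miR-103 (left) and miR-107 (right) under 4 scalings, as log2 differences (horizontal axis) with 95% intervals; the vertical line marks no difference. KO minus WT after UV stayed between 0.13 and 0.17 under the 4 scalings, while the UV differences moved with the scaling, miR-107 in KO from 0.03 (quantile) to 0.18 (summed signal).

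The ratio of the pair needs no normalisation, since both signals come from the same array. MiR-103 over miR-107 was 0.894, 0.77, 0.84 and 0.89 in unirradiated WT and 0.777, 0.833, 0.784 and 0.777 in unirradiated KO. After UV it was 0.737, 0.741, 0.724 and 0.733 in WT and 0.749, 0.708, 0.757 and 0.736 in KO. All 8 irradiated arrays lay under all 8 unirradiated arrays, and the irradiated arrays spread less (SD of 0.03 against 0.09 log2 units). On the log2 scale UV minus none was −0.21 in WT and −0.10 in KO (exact permutation p = 0.0286 each, the smallest possible; adjusted 0.0714 over 5 tests). With mean processed spot signals the UV and no UV arrays of each genotype overlapped, at −0.20 in WT and −0.12 in KO (exact permutation p = 0.0571 and 0.0857). They also overlapped with the authors' normalised values, at −0.21 in WT and −0.10 in KO (exact permutation p = 0.143 and 0.229). In total signal the UV effects differed by −0.10 (exact p = 0.124, adjusted 0.206). Between genotypes the log2 ratio differed by −0.10 without UV (exact p = 0.171, adjusted 0.214) and by 0.01 with UV (exact p = 0.743, adjusted 0.743).

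The 2 probes of miR-103 did not move alike. The longer probe over the shorter gave 2.18, 1.78, 2.13 and 2.05 in unirradiated WT, 1.86, 2.003, 2.004 and 1.86 in unirradiated KO, 2.56, 2.65, 2.29 and 2.23 in irradiated WT and 3.11, 2.52, 2.40 and 1.99 in irradiated KO. Of the 8 irradiated arrays 7 lay above all 8 unirradiated arrays, the exception being irradiated KO replicate 4. On the log2 scale this ratio was higher by 0.26 after UV in WT (exact permutation p = 0.0286, adjusted 0.143 over 5 tests) and by 0.36 in KO (exact p = 0.0857, adjusted 0.214). For miR-107 the longer over the shorter probe differed after UV by 0.08 in WT and 0.02 in KO (exact permutation p = 0.229 and 0.886; adjusted 0.81 and 0.886).

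Taken singly, the shorter probe of miR-103 was called lower after UV and the longer was not. Put through the same normalisation and fit by itself, the shorter was lower after UV by 0.25 log2 units in WT and by 0.24 in KO, that is −0.25 and −0.24 (limma adjusted p = 0.00962 and 0.0113). In the main fit 16.2% of tested miRNAs were called after UV in WT, 7.02% as lower. In KO 29.8% were called, 18.4% as higher. The longer probe by itself differed by −0.06 in WT and 0.12 in KO (limma adjusted p = 0.702 and 0.375). Between genotypes after UV the longer probe differed by 0.12 and the shorter by 0.01 (limma adjusted p = 0.796 and 1). The ratio of miR-103 to miR-107 from the shorter miR-103 probe and the longer miR-107 probe was lower by 0.41 after UV in WT and by 0.36 in KO, that is −0.41 and −0.36 (exact p = 0.0286 and 0.0571; adjusted 0.143 each). From the longer probes of both it differed by −0.15 and 0.00 (exact permutation p = 0.0857 and 0.971, adjusted 0.214 and 0.971). From the shorter probes of both it differed by −0.33 and −0.34 (exact permutation p = 0.0286 each, adjusted 0.0714 each). With the longer miR-103 probe and the shorter miR-107 probe the ratio differed by −0.07 and 0.02 (exact permutation p = 0.543 and 0.857, adjusted 0.821 and 0.857). The shorter miR-103 probe was also among the dimmer probes, at 213 to 502 units over the 16 arrays, against 472 to 1005 for the longer. The shorter miR-107 probe was as dim, at 226 to 506 units. The part of the higher background of the irradiated slide in these probe differences was not tested.

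**Figure D5:**
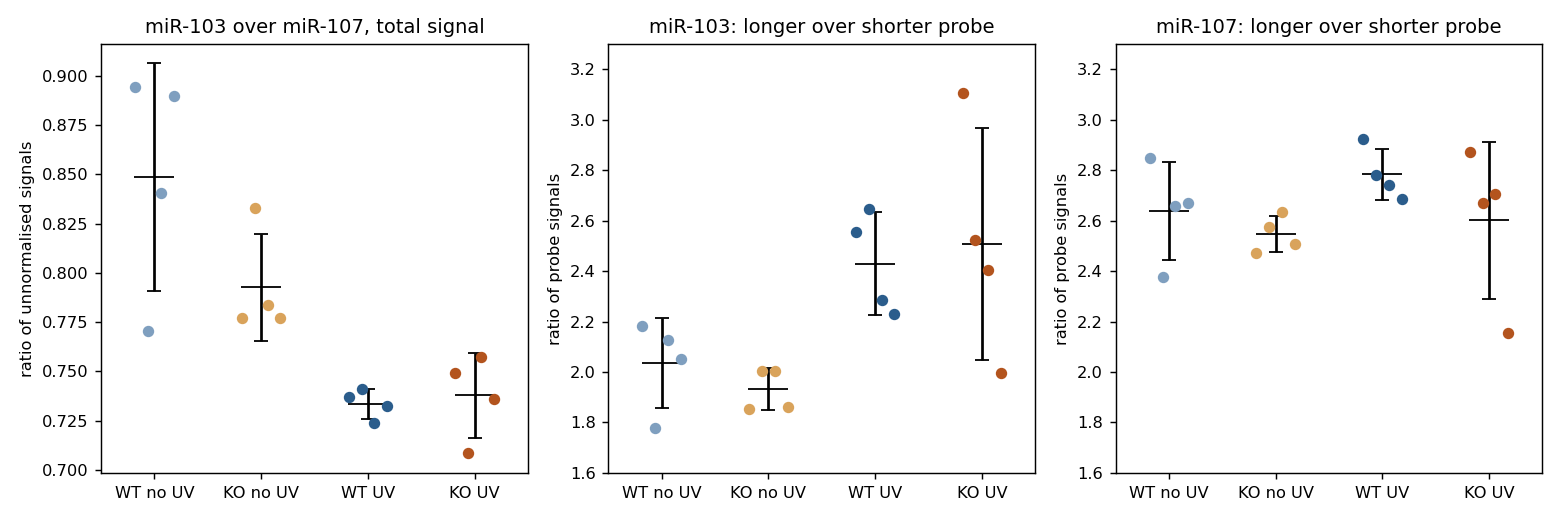
Ratios of unnormalised signals on each array by group, with mean ± SD of 4 arrays: miR-103 over miR-107 (left, vertical axis not from 0), and the longer over the shorter probe of miR-103 (middle) and of miR-107 (right). The left ratio is 0.708 to 0.757 on irradiated arrays and 0.77 to 0.894 on unirradiated arrays, and the probe ratio of miR-103 is higher on 7 of 8 irradiated arrays than on any unirradiated array.

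Likeness to other miRNAs was taken over the 16 arrays of quantile normalised log2 signal, as a description. MiR-150, a lymphocyte miRNA on the leukocyte list, was nearest to miR-103 (r = 0.73), followed by miR-744 (0.71) and miR-423-5p (0.69). MiR-365 was nearest to miR-107 (r = 0.66), followed by miR-93 of the miR-17 family (0.64) and the let-7 family member miR-98 (0.61). The 2 members correlated with each other at 0.41, which ranked 25 of 166 for miR-103 and 13 of 166 for miR-107. In unnormalised signal, where brightness is shared, the pair correlated at 0.94, and let-7d (0.98) was nearest to miR-103 and let-7f (0.97) to miR-107. The spread of the log2 ratio of the pair over the arrays, 0.10, was the 4th smallest for miR-103 and the 5th smallest for miR-107, with let-7f (0.08) and let-7c (0.08) first.

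The miRNAs of the miR-15/miR-107 group that share the 6-base run, regulators of cell cycle and survival, were taken next. Of 8 listed besides the pair, 7 were on the array by the listed name and 6 were tested; miR-424 had no feature by that name, and miR-503 was detected on 1 array. After UV in WT skin 1 of 6 was called, miR-15a, higher by 0.30 (limma adjusted p = 0.027; 9.21% of all tested miRNAs were called higher), and the median of the 6 was 0.18 against 0.00 over all tested miRNAs. In KO skin 3 of 6 were called, all higher: miR-15a by 0.30, miR-15b by 0.50 and miR-16 by 0.21 (limma adjusted p = 0.0211, 0.0107 and 0.0244), with a median of 0.08; 18.4% of all tested miRNAs were called higher there. Between genotypes after UV 1 of 6 was called, miR-322, lower by 0.42, that is −0.42 (limma adjusted p = 0.0136), where 2.19% of all tested miRNAs were called. None was called without UV or in the comparison of UV effects by limma. Of the 8 tested reference miRNAs 2 were called, both higher after UV in KO skin: miR-16 and miR-25, by 0.21 and 0.35 (limma adjusted p = 0.0244 and 0.0386). In the other comparisons 0 of the 8 were called by limma.

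The 2 members were then used in turn as the reference for all other miRNAs, each array's signals divided by the member's signal. With miR-103 as the reference 62 of 226 miRNAs were called after UV in WT skin (27.4%), 48 higher and 14 lower, and with miR-107 there were 42, 14 higher and 28 lower. Quantile normalisation called 36 of the same 226, of which 29 were also called with miR-103 and 27 with miR-107, none in the opposite direction. The median difference over all miRNAs was 0.05 with miR-103 and −0.10 with miR-107. In KO skin miR-103 gave 59 calls (26.1%), 32 higher and 27 lower, and miR-107 gave 66, 23 higher and 43 lower, against 68 by quantile normalisation.

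Between genotypes after UV the references gave 8 calls (3.54%) with miR-103 and 7 with miR-107, all lower in KO, and quantile normalisation 5, all 5 shared with each. The 8 calls ran from 5 (without irradiated KO replicate 1 or irradiated WT replicate 3) to 16 (without unirradiated WT replicate 3), with 13 without irradiated WT replicate 1. The median over all miRNAs moved by −0.11 with miR-103 and −0.09 with miR-107. Without UV both gave 0 calls by limma, with 45 and 46 miRNAs at an unadjusted p under 0.05; leaving out unirradiated WT replicate 2 gave 17 calls with miR-103. The comparison of UV effects gave 4 calls (1.77%) with miR-103 and 2 with miR-107, from 0 to 9 as single arrays were left out (0 without irradiated KO replicate 3 or irradiated WT replicate 1, 9 without unirradiated WT replicate 2), and gave 1 with miR-103 and the replicate number as a block.

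MiR-21, the guide strand of the miRNA gene that the study follows, shows what the choice of member does to 1 target. In units of log2 over miR-103 it averaged 4.54 ± 0.40 in unirradiated WT, 3.82 ± 0.26 in unirradiated KO, 4.95 ± 0.18 in irradiated WT and 4.50 ± 0.25 in irradiated KO (SD, n = 4 each). Over miR-107 the means were 4.30 ± 0.49, 3.48 ± 0.29, 4.50 ± 0.17 and 4.06 ± 0.24. After UV in KO skin it was higher by 0.69 over miR-103 (limma adjusted p = 0.0205), by 0.58 over miR-107 (limma adjusted p = 0.0657) and by 0.68 with quantile normalisation (limma adjusted p = 0.0173), so the call was lost with miR-107 as the reference. In WT skin the differences after UV were 0.41, 0.20 and 0.18 (limma adjusted p = 0.148, 0.527 and 0.545). KO minus WT was −0.72 over miR-103 and −0.82 over miR-107 without UV (limma adjusted p = 0.0886 and 0.0594), and −0.45 and −0.44 with UV (limma adjusted p = 0.284 and 0.413). With quantile normalisation KO minus WT was −0.68 without UV and −0.18 with UV (limma adjusted p = 0.0635 and 0.913).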

How the data were processed

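Dorsal skin total RNA (100 ng) from 16 samples was hybridised to single-colour Agilent mouse miRNA arrays. Per the labels and file headers, the authors read them with Agilent Feature Extraction 9.5.3.1; the headers give array design 19119 and build mm9, whereas the methods name a later array release. The deposited scanner files hold linear intensity, background-subtracted by the scanner software and not normalized between arrays; the total gene signal combines a miRNA's spots. The deposited table of the series is on the log2 scale, normalized by the authors with an invariant set and quantiles; its offset before logarithms is not given in the sources used here.

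Total gene signals were quantile normalised (limma 3.58.1, R 4.3.3), set to a floor of 19.4 units and log2 transformed. Tested were the 228 miRNAs that some group detected on its 4 arrays without exception; 167 were detected on all 16. One group-means model (lmFit, eBayes) gave 5 contrasts, called at an adjusted p under 0.05. Residual degrees of freedom were 12 and those of the prior 0.802. Brightness-scaled values and ratios used unnormalised signals and exact permutation tests (70 splits, or 4900 with genotype permuted within irradiation); correlations used 100000 resamples, or all 40320 pairings within a slide (scipy and numpy in Python). RefSeq sequences (GRCm38.p6) were matched by name for 8 miRNAs, taking the 3p arm for miR-103 and miR-107 and the 5p arm for the miR-15/16 group, since the array names carry no arm. Deviations of same-numbered arrays from their group means correlated at over 0.1 in every pair for unirradiated WT with irradiated WT (0.132 to 0.32) and for unirradiated KO with irradiated WT (0.172 to 0.378), and not in the other 4 combinations of groups (−0.348 to 0.32). The labels do not say what the numbers mark. Scripts were tested on simulated data. The number of arrays limits the precision. Alternatives changed the scaling, signal, filter, floor, arrays, block, slide row, test and threshold, and left out each array. The named miRNAs were both members in each contrast, the 3 with the highest r to each, miR-21, and fixed lists of the miR-15/miR-107 group, reference miRNAs and cell type miRNAs. The miRNAs that stood nearest on other scales (let-7c, let-7d, let-7f) were named after their values were seen. Members and lists were chosen with earlier results of these data known.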

Additional observations from a re-analysis of the deposited data

Results flagged for a closer look

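Among 32 groups of 4 arrays examined with Dixon's gap ratio at its 95% critical value, 2 held a sample far from the others, where chance gives about 1 in 20. Unirradiated KO replicate 1 was at 9.88 log2 units of normalised miR-103, while the other 3 arrays of that group all took 9.98. Unirradiated KO replicate 2 had a log2 ratio of miR-103 to miR-107 of −0.26, against −0.36 to −0.35 in the other 3.

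The effect of UV on the brightness of the arrays differed between genotypes: the log2 summed signal gave a difference of UV effects (WT minus KO) of 0.87 (p = 0.00163 over 4900 exact permutations, adjusted 0.0245 over 15 tests). In the same family the unnormalised miR-103 and miR-107 gave 0.68 and 0.79 (adjusted exact p = 0.0653 each).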

How the results depend on the processing

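The exact tests between 2 groups, of the brightness-scaled differences and of the ratio, could hardly reach 0.05 after adjustment at this size. Their p-values therefore say nothing about stability. The differences of UV effects, with more permutations, could reach that level. As single arrays were left out, their adjusted exact permutation p ran from 0.0571 to 0.143 (miR-103), 0.0728 to 0.677 (miR-107) and 0.0531 to 0.357 (ratio). The correlations with brightness kept their direction and side of 0.05 in each. The normalised difference of miR-103 after UV in WT, −0.23, lost its call with 6 alternatives: −0.22 scaled to the 75th percentile over miRNAs detected throughout, −0.093 to that over all miRNAs, −0.11 with the invariant set, −0.11 with the summed signal, −0.15 with normexp and −0.063 from the longer probe alone. At the methods' threshold (p under 0.001, fold of at least 1.5) it was not called at −0.23, and with no normalization it turned to 0.17. The replicate block over all arrays kept it called at −0.23 (limma adjusted p = 0.0206), and the block over the WT arrays alone, added after seeing the data, left it at −0.23 and not called (limma adjusted p = 0.0906). With miR-103 as the reference the block, also added, gave 1 call of differing UV effects in place of 4; it changed no other call of the members and moved no other count by over 1.5 times.

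With no normalization the other values were, for miR-103, 0.54 (KO minus WT, no UV), −0.14 (KO minus WT, UV), −0.51 (UV effect in KO) and 0.68 (difference of UV effects), and for miR-107 0.64, −0.15, −0.41 and 0.79, with 0.37 for the UV effect in WT. Of these, limma called the genotype difference without UV, the UV effect in KO and the difference of UV effects, for both members. The shares of all tested miRNAs called with no normalization were not counted. The SDs over 16 arrays were 0.29 and 0.31. The UV effect in KO for miR-103 turned to 0.042 (invariant set), 0.056 (75th percentile of all miRNAs), 0.078 (summed signal) and 0.12 (longer probe), and was called at −0.24 from the shorter probe. That of miR-107 in KO was called at 0.15 (invariant set) and 0.18 (summed signal). It was called in the opposite direction, at −0.41, with no normalization, and was −0.0039 from its longer probe. That of miR-107 in WT turned to 0.094, 0.11, 0.096 (invariant set, 75th percentile of all miRNAs, summed signal) and 0.014 (shorter probe). KO minus WT without UV for miR-103 was 0.00017 from the shorter probe. Relative to brightness, the 75th percentile gave 0.0022 (miR-103, genotype without UV), −0.062 (miR-103, UV in KO) and −0.012 (miR-107, UV in WT), and the sum without the 10 brightest miRNAs 0.0024 for the first of these. The ratio after UV between genotypes was −0.020 from processed spots. From single probe pairs, chosen after seeing the data, it was −0.061 and −0.092, the UV effect in KO was 0.0015 and 0.024, and the difference of UV effects 0.0092.

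As single arrays were left out, the normalised values ran from −0.26 to −0.20 (miR-103, UV in WT), 0.12 to 0.20 (KO minus WT, UV; called only without KO UV replicate 2), and −0.046 to 0.019 (KO minus WT, no UV). For miR-107 they ran from −0.033 to 0.062 (UV in KO), −0.083 to 0.035 (UV in WT) and −0.11 to 0.0083 (difference of UV effects), and the ratio between genotypes after UV from −0.0048 to 0.027. Calls between genotypes after UV were 5 with the summed signal in place of miR-103. With miR-103 as the reference they were 2 among the miRNAs detected on all 16 arrays. They ran from 5 to 16 as arrays were left out (5 without KO UV replicate 1 or WT UV replicate 3, 13 without WT UV replicate 1, 16 without WT no UV replicate 3). Without UV they ran from 0 to 17. Calls of differing UV effects were 2 with miR-107, 2 with both members and 1 with the summed signal in place of miR-103. With miR-103 they were 0 among the miRNAs detected on all arrays, and 0 to 9 as arrays were left out.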
